A study of Mus musculus with 9 samples.

Results

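The genes described here are 10 subunits of voltage-gated calcium channels: the pore-forming α1 subunits Cacna1a, Cacna1b, Cacna1c, Cacna1d, Cacna1e, Cacna1g, Cacna1h and Cacna1i, and the auxiliary α2δ subunits Cacna2d1 and Cacna2d2. Their probes were found by accession, symbol or older name in the annotation of the arrays, whatever the values of the probes, which gave 25 of the 41174 probes. RNA came from L3/L4 dorsal root ganglia (DRG), the ganglia beside the spinal cord that hold the cell bodies of sensory neurons of the leg, of adult mice labelled cre.neg and jun.wt, which read as no Cre and wild-type Jun in every sample. The 4 control samples are called uninjured here and the 5 lesion samples injured. The labels give 3 days after cutting of the sciatic nerve for every sample, in the same words for the controls, while the study's results text gives a shorter time and one of its legends nerve crush. Neither the sex and exact age of the mice nor the animals behind each sample are given, so the p-values measure the spread between these samples, which may be in part technical. Each sample was hybridised with Cy5 dye against a commercial mouse reference RNA with Cy3 dye on a 2-colour Agilent array, with no dye swap, and every value below is a log2 ratio of DRG over reference unless it is named as a difference.

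Voltage-gated calcium channels open when a neuron is depolarised, and the calcium that enters triggers transmitter release, shapes firing and carries signals to the nucleus. The α1 subunit forms the pore and sets the class: L-type channels (Cacna1c, Cacna1d) are high-threshold channels coupled to gene expression, the P/Q-, N- and R-type channels (Cacna1a, Cacna1b, Cacna1e) serve release at nerve terminals, and the T-type channels (Cacna1g, Cacna1h, Cacna1i) open at low voltage and tune excitability. The α2δ subunits bring α1 subunits to the membrane and to terminals, and α2δ1 and α2δ2 bind gabapentin and pregabalin, drugs used against nerve pain. A whole ganglion holds neurons, glia, vessels and blood cells, so here fewer cells of a type and less RNA per cell cannot be told apart.

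The arrays lay on 3 slides. The first held 3 uninjured arrays, another held 1 uninjured and 3 injured arrays, and the last held the remaining 2 injured arrays, so slide and injury can be told apart only in part. With slide as a fixed block, the injury difference comes only from the slide with both groups, that is from 1 uninjured against 3 injured arrays. Median Cy5 signals lay between 156 (injured array 5) and 238, and 71.0% to 78.9% of spots per array stood well above background in Cy5. Sensory neuron markers were present. Their mean over 10 genes lay −0.104 to 0.087 from the uninjured mean on uninjured arrays and −0.282 to 0.115 from it on injured arrays. Of the 10 markers, 2 (Isl1 and Elavl4) fell, beside 13.7% of all genes tested. Skeletal muscle markers stood far above the uninjured arrays on injured arrays 2 and 4 (mean over 9 genes 1.98 and 3.38 higher), against −0.093 to 0.319 on the other 3. A probe was tested if its Cy5 signal was well above background on at least 4 arrays, and it is said to have risen or fallen if limma's moderated test gave a Benjamini-Hochberg adjusted p under 0.05 over all 31186 probes tested.

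Of the calcium channel probes, 21 were tested, and they cover 9 of the 10 genes. Both Cacna2d1 probes rose, 2 of the 4 Cacna2d2 probes fell, 1 of the 2 Cacna1b probes rose, and the other 16 tested probes did not pass the test. These 5 calls are 23.8% of the tested calcium channel probes, beside 23.5% of all tested probes, so the share called was that of the background. Among all tested probes 10.5% rose and 13.0% fell. In 4 of the 21 probes the uninjured and injured arrays did not overlap (19.0%, against 22.6% of all tested probes). By the brightest probe, 1 of the 9 genes (Cacna2d1) passed the test and had groups that did not overlap, beside 24.9% and 23.9% of all 20895 genes tested. The median change of the 21 probes was −0.09, with 13 below and 8 above 0, beside a median of −0.0045 over all tested probes. The largest changes in each direction were those of α2δ probes, while the changes of the 15 tested α1 probes lay between −0.26 and 0.33.

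**Figure D1:**
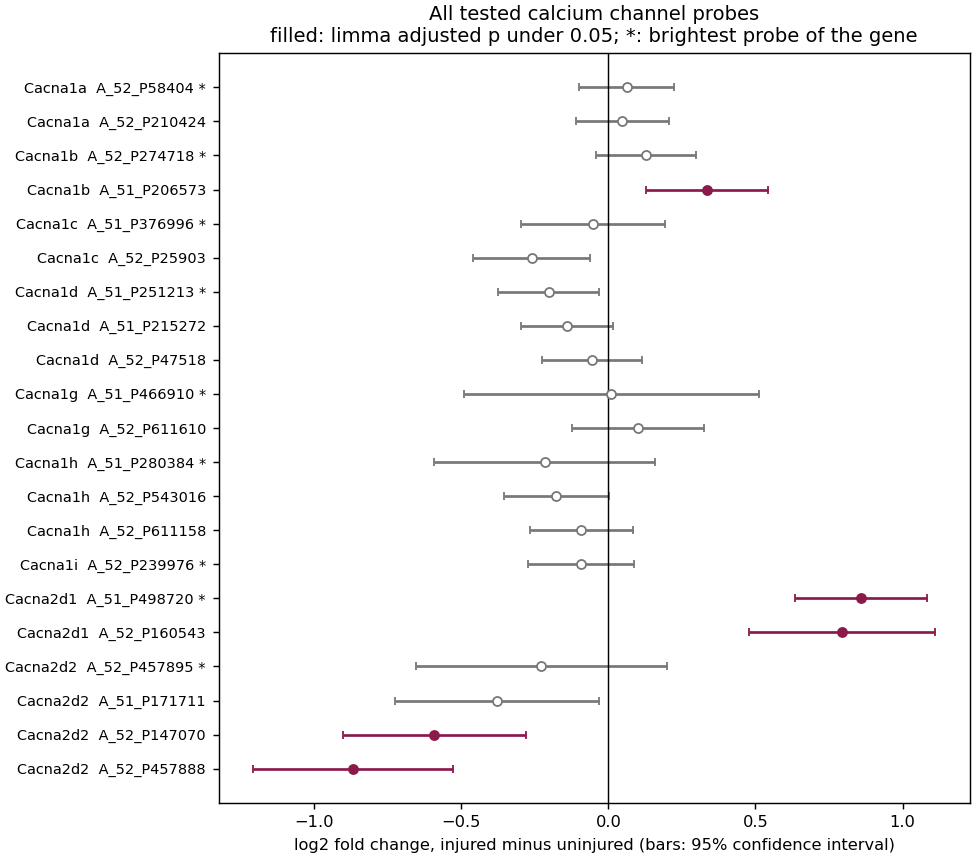
Change of every tested calcium channel probe on a log2 scale (injured minus uninjured), with 95% confidence intervals from limma; filled points passed the test and an asterisk marks the brightest probe of a gene. Both Cacna2d1 probes lie near 0.8, the Cacna2d2 probes spread from −0.23 to −0.87, and all α1 probes lie within −0.26 to 0.33.

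Cacna2d1, the α2δ subunit with the higher affinity for gabapentin, was higher on every injured array than on any uninjured array. Its brightest probe, A_51_P498720, lies at chr5:15378481-15378540 on the plus strand of build mm7, and no annotation of that build was used here to place it in an exon. On uninjured arrays 1 to 4 it read 3.35, 3.27, 3.30 and 3.42. On injured arrays 1 to 5 it read 4.05, 4.32, 4.42, 4.27 and 3.90. The lowest injured array therefore stood clear of the highest uninjured one, with means of 3.33 ± 0.07 (SD, n = 4) and 4.19 ± 0.21 (SD, n = 5). The difference was 0.86 on the log2 scale, or 1.81-fold (SE 0.10, 95% confidence interval 0.63 to 1.08, limma adjusted p = 0.00019).

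A second Cacna2d1 probe, A_52_P160543, lies 11732 bases upstream at chr5:15366689-15366748. Its uninjured values were 2.66, 2.79, 2.74 and 2.48 and its injured values 3.48, 3.68, 3.59, 3.64 and 2.92. Again no array overlapped, but injured array 5 sat closer to the uninjured arrays than to the other injured ones. The difference was 0.79 (SE 0.14, limma adjusted p = 0.0026), and with slide as a fixed block it was 0.70 and did not pass the test (limma adjusted p = 0.17). The changes of both probes differed by 0.06 (two-sided exact permutation test, all 126 ways to split the arrays, p = 0.60).

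Another sequence of the locus, a cDNA clone with the accession-based name AK046959 that the array file describes as an α2δ1 cDNA, was not a member by name. Its probe lies at chr5:15337175-15337234 and was well above background on 0 of 4 uninjured and 5 of 5 injured arrays, so its uninjured level is only a bound and no fold is given. Its log2 ratios lay between 0.04 and 0.21 on uninjured and between 0.30 and 0.55 on injured arrays. It passed the filter only through the injured arrays and adds no independent support.

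The Cacna2d1 values were set beside the muscle markers, and the part of muscle RNA in them was not tested. The highest value of the brightest Cacna2d1 probe was on injured array 3, where the mean of the muscle markers was 0.093 below the uninjured mean. Without injured arrays 2 and 4, a comparison chosen after the data were seen, the difference was 0.79 (limma adjusted p = 0.0039), and the second probe gave 0.66 (limma adjusted p = 0.026). On the slide with both groups, 1 uninjured against 3 injured arrays, the differences were 0.75 and 0.70, which are also the values with slide as a fixed block.

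**Figure D2:**
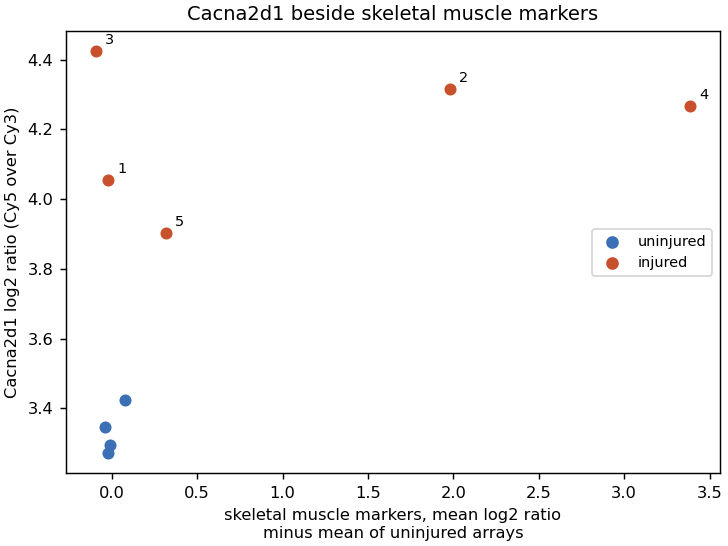
Log2 ratio of the brightest Cacna2d1 probe (vertical) against the mean of 9 skeletal muscle genes relative to the uninjured arrays (horizontal, log2), 1 point per array, with injured arrays numbered. All 5 injured arrays lie at 3.90 or above and all 4 uninjured ones at 3.42 or below. The muscle markers are at the uninjured level on injured arrays 1 and 3 and far above it on injured arrays 2 and 4.

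Cacna2d2, the related subunit known for its role in cerebellar neurons and also a target of gabapentin, did not pass the test by its brightest probe. Its 4 probes were all lower on average in injured DRG, by 0.23 to 0.87, and 2 of them passed the test. No difference between the change of the brightest probe and that of another probe passed after adjustment (two-sided exact permutation, adjusted p = 0.095 to 0.85). A probe pair could not pass this adjustment alone, so the test could not decide whether the probes differed. The largest fall was at A_52_P457888 (chr9:107258230-107258289, plus strand, mm7), the most downstream of the 4. It read 3.43, 3.50, 3.29 and 3.62 on uninjured arrays and 2.45, 2.65, 3.10, 2.57 and 2.18 on injured arrays. All injured values were below all uninjured values, and injured array 3 came closest. The difference was −0.87, or 1.83-fold lower (SE 0.15, 95% confidence interval −1.21 to −0.53, limma adjusted p = 0.0023), and with slide as a fixed block −1.001 (limma adjusted p = 0.0502).

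The brightest Cacna2d2 probe, A_52_P457895, lies only 159 bases before it (chr9:107258011-107258070) and did not pass the test. It read −0.08, −0.05, −0.17 and 0.15 on uninjured arrays and −0.66, −0.34, 0.47, −0.26 and −0.56 on injured arrays. Injured array 3 was above every uninjured array, and the other 4 injured arrays were below every one. The difference was −0.23 (SE 0.19, 95% confidence interval −0.66 to 0.20, limma adjusted p = 0.44). Without injured array 3 it was −0.41 and passed (limma adjusted p = 0.020), and in the Cy5 channel alone it was −0.54 (limma adjusted p = 0.029). The changes of these neighbouring probes differed by 0.64 (two-sided exact permutation p = 0.016, the smallest that 126 splits allow, and 0.095 after adjustment over 12 probe pairs). Even at that p, a probe pair could pass the adjustment only if several other pairs also had small p-values.

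The other Cacna2d2 probes lay in between. A_52_P147070, whose bases span 39478 bases of genome and so cross at least 1 intron, fell from 1.44, 1.48, 0.82 and 1.15 to 0.56, 0.43, 0.93, 0.67 and 0.56. Its groups overlapped, since injured array 3 was above uninjured array 3. The reference channel was well above background on only 1 of the 9 arrays at this probe. The difference was −0.59 (SE 0.14, limma adjusted p = 0.012), which did not pass with slide as a fixed block, with Agilent's own ratio or without injured arrays 2 and 4 (limma adjusted p = 0.052, 0.093 and 0.071). A_51_P171711 read 0.91, 1.25, 0.53 and 1.20 on uninjured arrays and 0.25, 0.49, 0.82, 0.68 and 0.72 on injured arrays, a difference of −0.38 (limma adjusted p = 0.11), which was 0.05 with Agilent's own ratio and which passed without uninjured array 3 (−0.53, limma adjusted p = 0.024). On all 4 probes injured array 3 was the highest of the injured arrays. The mean of the 4 probes, a summary chosen after the data were seen, fell by 0.52 on the log2 scale (SE 0.14, limma adjusted p = 0.020).

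**Figure D3:**
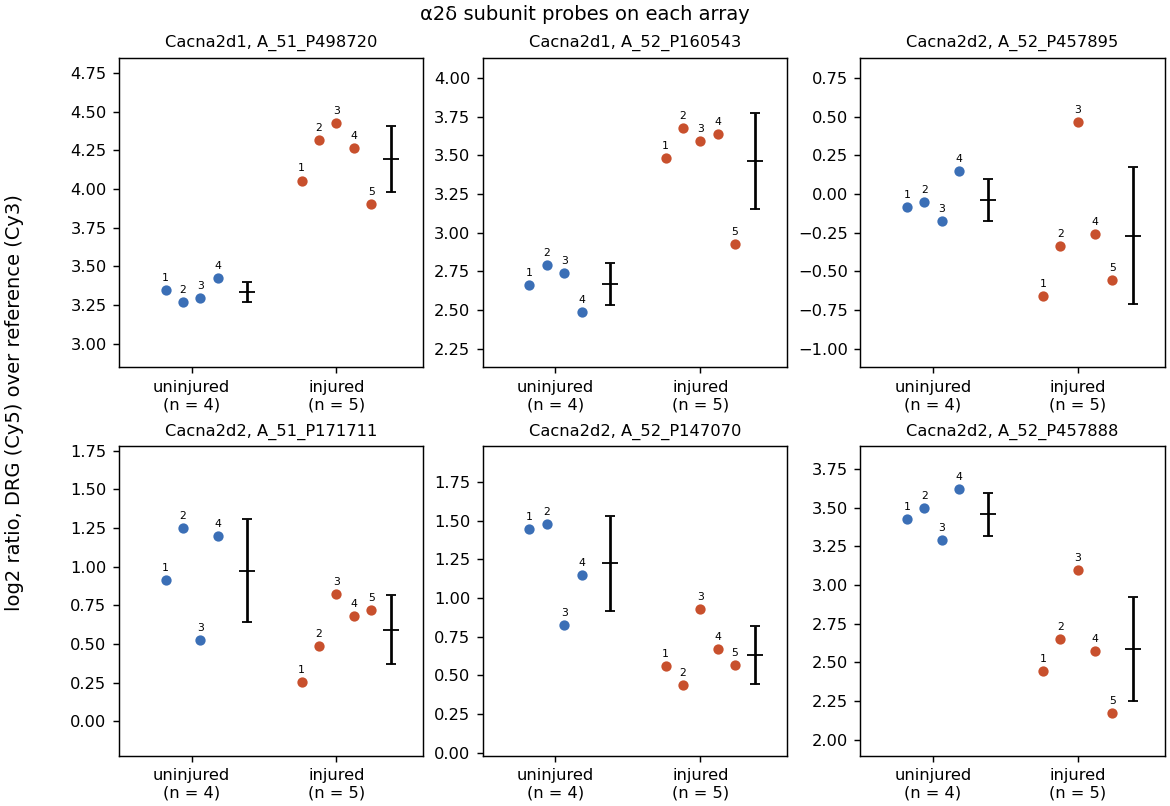
Log2 ratio of DRG over reference on each array (numbered points) for the 2 Cacna2d1 and 4 Cacna2d2 probes, with the mean and SD of each group as a black mark and bar; every panel spans the same range of log2 units. Injured arrays lie wholly above uninjured ones for both Cacna2d1 probes and wholly below for Cacna2d2 probe A_52_P457888, while the other Cacna2d2 probes overlap and injured array 3 is the highest injured array in each.

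The changes of the α2δ subunits were set against each other within each array. By the brightest probes, Cacna2d1 minus Cacna2d2 changed by 1.09 on the log2 scale between the groups, with SDs of the difference of 0.09 (n = 4) and 0.30 (n = 5). The two-sided exact permutation p was 0.016, the smallest possible, and 0.095 after adjustment over the 6 pairs of one class that could be tested. Even at the smallest p, a pair could pass this adjustment only if other pairs also had small p-values. The test therefore could not decide on this pair alone. With the mean of each gene's probes the change of the difference was 1.34 with the same p. Without background correction and with Agilent's own ratio this pair and the L-type pair both passed (adjusted exact permutation p = 0.048). The other pairs had unadjusted p-values of 0.13 to 0.79. Both pairs with Cacna1e had no value.

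Among the α1 subunits of release sites, Cacna1b, the pore of the N-type channel that ziconotide blocks, was the only one with a called probe. Probe A_51_P206573 (chr2:24613788-24613846, minus strand, mm7) rose by 0.33 (SE 0.09, limma adjusted p = 0.025). It read 1.22, 1.48, 1.21 and 1.10 on uninjured arrays and 1.72, 1.70, 1.38, 1.51 and 1.63 on injured arrays, where injured array 3 fell below uninjured array 2. The call was lost under 5 of the planned processing alternatives, without uninjured array 1, 3 or 4, without injured array 1 or 2, and without injured arrays 2 and 4 together, with adjusted p-values up to 0.44. The brightest Cacna1b probe, A_52_P274718, lies 514 bases away and read 3.72, 3.92, 3.67 and 3.58 against 3.83, 3.92, 3.72, 3.89 and 3.88. Its difference was 0.13 (95% confidence interval −0.04 to 0.30, limma adjusted p = 0.28). The changes of both Cacna1b probes differed by 0.21 (two-sided exact permutation p = 0.016, adjusted p = 0.095). This pair too could pass the adjustment only if several other probe pairs had small p-values.

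Cacna1a, the pore of the P/Q-type channel, did not pass the test. Its brightest probe read 0.60, 0.86, 0.80 and 0.86 on uninjured arrays and 0.84, 0.95, 0.75, 0.88 and 0.79 on injured arrays. The groups overlapped, with 2 injured arrays above every uninjured one and a difference of 0.06 (95% confidence interval −0.10 to 0.22, limma adjusted p = 0.60), and its other probe gave 0.05 (95% confidence interval −0.11 to 0.21). Cacna1e, the R-type pore, was not well above background on any array with either of its 2 probes. Their log2 ratios lay between −0.17 and 0.22, and no change can be given for a gene measured only at background.

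The L-type subunits did not pass the test. Cacna1c, the main L-type pore of heart and brain, read 0.67, 0.85, 0.84 and 0.78 on uninjured arrays and 0.95, 0.98, 0.69, 0.62 and 0.42 on injured arrays with its brightest probe. Injured arrays lay on both sides of the uninjured ones, and the difference was −0.05 (limma adjusted p = 0.78), which turned to 0.02 without injured array 5 and to 0.11 with slide as a fixed block. Its other probe, A_52_P25903, 241 bases away, was below every uninjured array on 4 of 5 injured arrays and gave −0.26 (SE 0.09, limma adjusted p = 0.060), and it passed without injured array 1 (−0.32, limma adjusted p = 0.019). Cacna1d, whose channel opens at lower voltages than other L-type channels, gave −0.20 with its brightest probe (95% confidence interval −0.38 to −0.03, limma adjusted p = 0.086). That probe read 0.72, 0.81, 0.76 and 0.62 on uninjured arrays and 0.48, 0.75, 0.53, 0.45 and 0.41 on injured arrays, so only injured array 2 lay among the uninjured ones. Without that array the difference was −0.26 and passed (limma adjusted p = 0.020). At the brightest probe the reference channel was well above background on only 3 arrays, and Agilent's own ratio gave −0.86. The gene's other tested probes, A_51_P215272 and A_52_P47518, gave −0.14 and −0.06, with the reference channel well above background on only 1 and 0 arrays. A_51_P215272 was well above background in Cy5 on only 2 uninjured and 2 injured arrays. The remaining probe was above background in Cy5 on 0 arrays. Both L-type genes also had probes that passed in some processing alternatives, A_52_P25903 in 5 and the brightest Cacna1d probe in 5.

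The T-type subunits did not pass the test. Cacna1g, a T-type pore of many central neurons, lay below the reference RNA on every array. Its brightest probe read −2.59, −2.30, −1.76 and −2.10 on uninjured arrays and −2.55, −2.25, −2.50, −2.15 and −1.43 on injured arrays. Injured array 5 stood highest, and the difference of 0.01 had a 95% confidence interval of −0.49 to 0.51, which leaves room for a change of that size in either direction (limma adjusted p = 0.98). The other Cacna1g probe gave 0.10 (95% confidence interval −0.12 to 0.32).

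Cacna1h, the T-type pore best known in DRG, where it marks low-threshold touch neurons, read 2.16, 2.57, 2.13 and 2.36 on uninjured arrays and 1.99, 2.04, 1.81, 1.88 and 2.70 on injured arrays. Injured arrays 1 to 4 were below every uninjured array, and injured array 5 was above every one. The difference was −0.22 (95% confidence interval −0.59 to 0.16, limma adjusted p = 0.40), and without injured array 5 it was −0.37 and passed (limma adjusted p = 0.024). Leaving out any other single array gave −0.28 to −0.13 and never passed. Within the slide that held both groups, injured array 5 among them, the difference had the opposite sign (0.09, from 1 uninjured and 3 injured arrays). The direction of the Cacna1h change therefore depended on which arrays were compared. Probe A_52_P543016 of the same gene read 0.36, 0.28, 0.33 and 0.38 against 0.28, 0.25, 0.16, −0.11 and 0.22, and its groups did not overlap, with a difference of −0.18 (95% confidence interval −0.36 to 0.00134, limma adjusted p = 0.14). It passed without background correction (−0.18, limma adjusted p = 0.048) and with Cy5 alone (−0.37, limma adjusted p = 0.037), where the reference channel gave −0.12. Another probe gave −0.09, and the last was above background on 1 uninjured and 1 injured array and was not tested. Of the 7 markers listed for mechanoreceptors, 1 (Necab2) fell, beside 13.7% of all genes tested. Cacna1i, a T-type pore known from the thalamus, had 1 probe with a difference of −0.09 (95% confidence interval −0.27 to 0.09, limma adjusted p = 0.47).

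**Figure D4:**
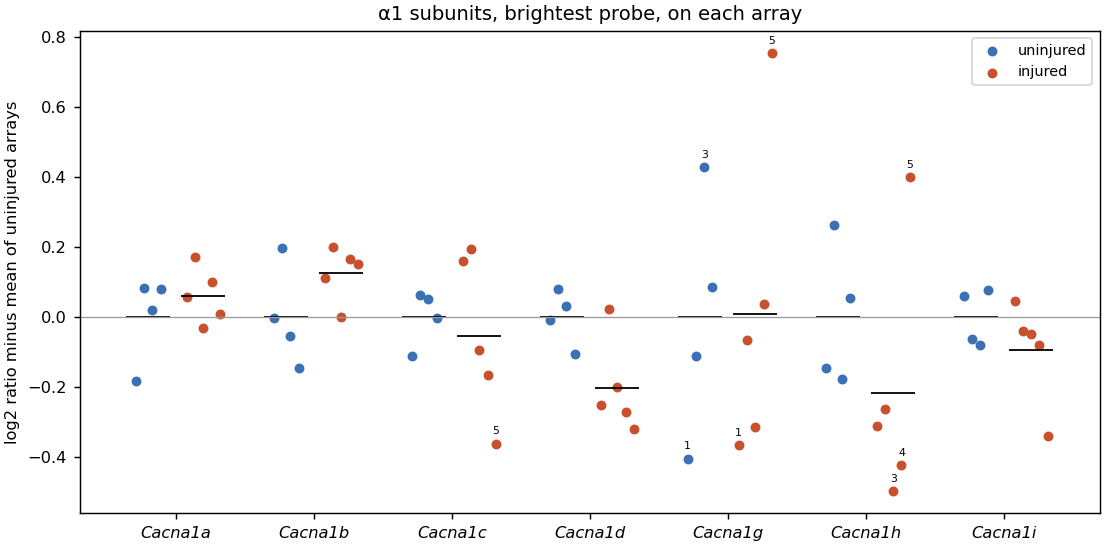
Log2 ratio of the brightest probe of the 7 tested α1 subunits on each array, relative to the mean of the uninjured arrays; black lines are group means and points more than 0.35 from 0 carry their array number. Uninjured and injured arrays overlap for every gene, and injured array 5 is the highest for Cacna1g and Cacna1h and the lowest for Cacna1c, Cacna1d and Cacna1i.

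Injured array 5 had the lowest median Cy5 signal (156, against 194 to 238 on the other arrays). It also had the highest mean of the macrophage and red blood cell markers (1.10 and 1.22 above the uninjured mean), with injured array 2 close to it (0.88 and 1.19). Injured array 5 was highest as well for the endothelium and fibroblast (0.70), satellite glia (0.37) and sensory neuron (0.115) markers. The part of these values in the Cacna2d1, Cacna1h and Cacna1g readings of that array was not tested. The reference channel holds the same reference RNA on every array. In it alone, limma called 30 of the 31186 tested probes (0.0962%), and 2803 of the 31186 had an unadjusted p under 0.05. No calcium channel probe was called. The reference channel was nevertheless lower with injury by a log2 difference of −0.29, −0.19, −0.18 and −0.02 at Cacna2d2 probes A_52_P457895, A_51_P171711, A_52_P457888 and A_52_P147070, and it differed by 0.06 at both Cacna2d1 probes. Their part in the ratio changes was not tested.

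The channel's other subunits and partners, the thrombospondins, and genes of calcium release, entry, removal and sensing were read by the brightest probe of each gene. Of 71 listed genes, 68 were tested, 6 rose and 15 fell, beside 11.2% and 13.7% of all genes tested. None of the 4 β subunits, which bind α1 in the cytoplasm, passed the test, with changes of −0.28 (Cacnb4) to 0.10. Of the other α1 and α2δ genes, Cacna2d3 gave −0.19 and Cacna2d4 0.00 (limma adjusted p = 0.19 and 0.99). Cacna2d4 was well above background in Cy5 on only 2 uninjured and 2 injured arrays, and in the reference channel on 1 array. Cacna1s, the L-type pore of skeletal muscle, gave 0.41 (limma adjusted p = 0.38) and was highest on injured arrays 4 and 2 (−1.01 and −2.09, against −2.81 to −2.25 on the other injured arrays), the arrays with the highest muscle markers. Cacna1f was not tested.

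Of 7 tested members of the γ family 2 fell, beside 13.7% of all genes tested. Cacng5, a regulator of AMPA receptors, read 3.33, 3.53, 3.59 and 3.60 on uninjured arrays and 2.98, 2.50, 2.23, 2.34 and 3.18 on injured arrays. All injured arrays were below all uninjured ones, with a difference of −0.87 (SE 0.18, limma adjusted p = 0.0061). Cacng2, or stargazin, which brings AMPA receptors to synapses, gave −0.53 (SE 0.13, limma adjusted p = 0.014). On the slide with both groups these differences were −0.44 and −0.16, so their size moved by over 1.5 times, and with slide as a fixed block neither passed.

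Of the 18 regulators and partners, 2 rose and 3 fell, beside 11.2% and 13.7% of all genes tested. Rem2, a small GTPase of a family that suppresses channel activity, read 1.64, 1.64, 1.67 and 1.57 on uninjured arrays and 0.67, 0.43, 0.76, 0.35 and 0.47 on injured arrays. The groups were far apart, with a difference of −1.10 (SE 0.09, limma adjusted p = 1.2e-05). Stac, an adaptor that binds L-type channels, rose by 1.21 (SE 0.13, limma adjusted p = 0.00012), from 2.59, 3.06, 2.40 and 2.35 to 3.85, 3.87, 3.63, 3.77 and 3.95. Stx1a, a SNARE protein of vesicle fusion that binds Cav2 channels, rose by 0.51 (limma adjusted p = 0.0077). Of the proteins that hold these channels at release sites, Rimbp2 fell by 0.55 and Rims1 by 0.35 on the log2 scale (limma adjusted p = 0.00086 and 0.0029). For Rims1 the reference channel gave −0.43 and Cy5 alone −0.74. The remaining 13 of the 18, among them the 3 calmodulin genes (−0.23 to −0.17), did not pass the test.

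Of the 5 thrombospondins, secreted proteins of which some bind α2δ1, Comp fell by 0.75 (limma adjusted p = 0.017) and the others gave 0.16 to 0.30 without passing. Comp's difference on the slide with both groups was −0.24. Thbs4 varied most, from 3.00 to 5.14 on uninjured and from 3.56 to 5.63 on injured arrays.

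Calcium release and entry held the largest rise of all the lists. Itpr1, the IP3 receptor that releases calcium from the endoplasmic reticulum, read −0.27, −0.74, −0.30 and −0.67 on uninjured arrays and 1.49, 1.67, 1.29, 1.60 and 1.57 on injured arrays. Every injured array lay more than 1 log2 unit above every uninjured array, and the rise was 2.02, or 4.07-fold (SE 0.12, limma adjusted p = 1.1e-06). Ryr3, a ryanodine receptor, rose by 0.62 (limma adjusted p = 0.0050). Smaller rises were those of Itpr3 (0.29, limma adjusted p = 0.0499) and of the store sensor Stim2 (0.22, limma adjusted p = 0.035), and these did not pass in 17 and 14 of 23 alternatives (limma adjusted p up to 0.51 and 0.65). The store-operated channels Orai2 and Orai3 fell by 0.34 and 0.23 (limma adjusted p = 0.0087 and 0.028). Orai2 gave −0.17 on the slide with both groups, and Orai3 did not pass in 9 of 23 alternatives.

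Most genes of calcium removal and calcium sensing did not pass the test (7 of 9 and 6 of 11). Of 9 pumps and exchangers tested, the plasma membrane pumps Atp2b3 and Atp2b1 fell by 0.41 and 0.31 (limma adjusted p = 0.029 and 0.010), beside 13.7% of all genes tested that fell. Atp2b3 gave −0.13 on the slide with both groups and did not pass in 10 of 22 alternatives. Of 11 kinase and phosphatase genes that answer to calcium and calmodulin, 5 fell and none rose, beside 13.7% and 11.2% of all genes tested. The 5 were Camkk1 (−0.57, limma adjusted p = 0.0017), Camk2b (−0.52, limma adjusted p = 0.00013), the calcineurin subunits Ppp3r1 and Ppp3cb (−0.40 and −0.19, limma adjusted p = 0.012 and 0.031) and Camk2a (−0.31, limma adjusted p = 0.032). Camk2a and Ppp3cb did not pass in 12 and 11 of 23 alternatives, and for Camk2a the reference channel gave −0.41 and Cy5 alone −0.75. When slide was entered as a fixed block, 5 of the 21 called genes passed, namely Itpr1, Stac, Rem2, Camk2b and Rims1. Without injured arrays 2 and 4, 9 passed.

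**Figure D5:**
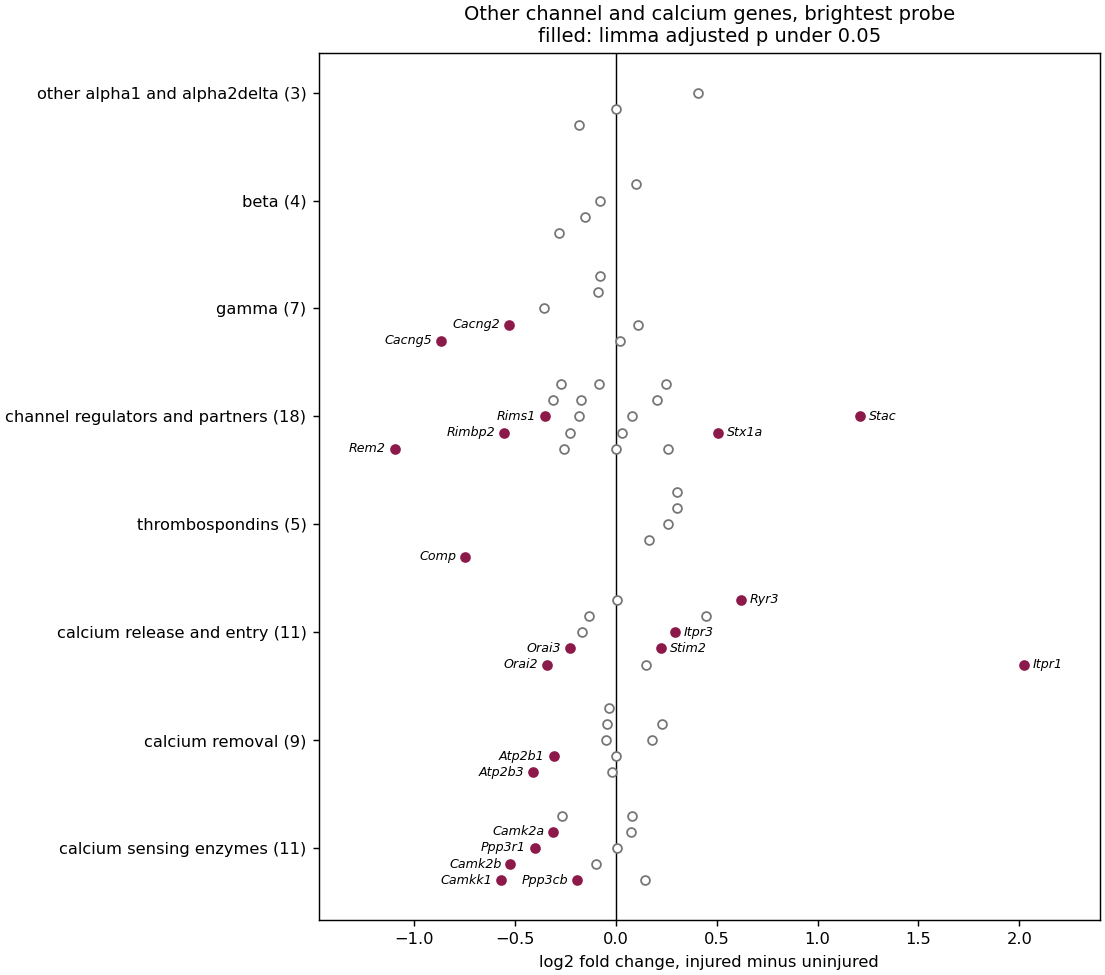
Change of the 68 tested genes of 8 lists on a log2 scale (injured minus uninjured, brightest probe), with the number tested in parentheses; filled points passed the test and carry their symbol, and the vertical scatter within a list only separates points. Itpr1 at 2.02 and Stac at 1.21 are the largest rises and Rem2 at −1.10 the largest fall.

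Among the genes whose brightest probes followed that of Cacna2d1 most closely over the 9 arrays, by Pearson's r, were 5330430C04Rik (0.987), Gnl2 (0.983), Dnajc7 (0.983) and Klf7 (0.982). Their own changes were 0.39 to 0.58, smaller than that of Cacna2d1. For the brightest Cacna2d2 probe, which did not pass the test, they were Paip1 (0.967), AK043132 (0.941), Ep300 (0.925), Trim55 (0.924) and AK080168 (0.901), with changes of −0.14 to −0.04. Values of all genes on an array share its RNA and its hybridisation, and these are descriptions of likeness only.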

How the data were processed

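The authors hybridised cRNA of each sample (Cy5) with universal mouse reference cRNA (Cy3) on Agilent arrays. The deposited scanner intensities are mean spot and median local background signals per channel. The log10 ratios of these files are, per the file headers, dye-normalized by Agilent. The authors' processed values are log2 Cy5/Cy3 ratios. That scale was found by comparison with the log2 ratios computed here from the scanner values (slope 1 to 1.01, r of 0.999 or more). Other deposited columns used here were flags, coordinates (mm7) and names.

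With limma 3.58.1 in R 4.3.3, signals went through background subtraction, normexp (offset 50) fitted without spots marked as non-uniform in feature or background, loess within arrays, the mean of repeated spots, and a filter for Cy5 well above background on at least 4 arrays. With all spots, 20 background outliers on injured array 2 moved the fitted background mean there to −358. Probes were named by accession (23082), symbol (6582) or older name (3073), and 8437 kept their file name. The brightest probe stands for a gene.

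Groups were compared with lmFit and eBayes, Benjamini-Hochberg adjusted, without covariates. Differences within arrays had two-sided exact permutation tests. Scripts were tested on simulated data. The number of arrays limits the precision. Members, lists and tests were chosen with earlier results of these data known. Named genes are all members, up to 6 called genes of a list and the 5 genes most like Cacna2d1 and Cacna2d2, of which 1 is not reported here; some uncalled genes were named after their values were seen. Marker lists of Schwann cells and of endothelium and fibroblasts had 0 genes called, satellite glia 1 (Glul, higher), macrophages 1 (Aif1, higher), and muscle and red blood cells 0. Alternatives were other background corrections and offsets, median centring, Agilent's and the authors' ratios, Cy5 alone, other filters, slide as a block, array weights, 1 probe per gene, and leaving out arrays. Figures used Python 3.11.15 and matplotlib 3.10.9.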

Additional observations from a re-analysis of the deposited data

Results flagged for a closer look

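Among 92 groups of arrays, 5 held 1 array that stood apart from the others by Dixon's test; chance gives about 1 in 20. Injured array 5 was such an array for Cacna2d1 probe A_52_P160543 (2.92, the next value 3.48), for Cacna1h probe A_51_P280384 (2.70, the next 2.04) and for Camkk1 (1.42, the next 1.18). Injured array 3 was for Rimbp2 (3.10, the next 3.40). Uninjured array 4 was for Cacna1g probe A_52_P611610 (−0.94, the next −1.16). The cause was not tested.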

How the results depend on the processing

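Calls of calcium channel probes, 5 as reported, numbered 3 with median centring, 8 with Cy5 alone, 1 with slide as a fixed block, 8 with slide as a random block, 1 with 1 probe per gene, 3 without the 2 injured arrays with the highest muscle markers, and 4 to 6 with 1 array left out. Calls of all probes, 7338 as reported, numbered 3523 with median centring, 1508 with slide as a fixed block, 4040 without those 2 arrays and 5377 to 7481 with 1 array left out. The share of these calls that rose was 44.6% as reported and 55.6% with slide as a fixed block. Calls of other channel and calcium genes, 21 as reported, numbered 13 with an offset of 0 and also with Agilent's ratio, 11 with median centring, 5 with slide as a fixed block and 9 without those 2 arrays. The median change of the members' brightest probes, −0.05 as reported, was −0.20 with Agilent's ratio, 0.0096 with both channels above background on all arrays and 0.11 with slide as a fixed block. Pairs of members passing numbered 0 as reported and 2 without background correction and with Agilent's ratio, namely Cacna2d1 with Cacna2d2 and Cacna1c with Cacna1d. No pair could pass this adjustment alone. The brightest Cacna2d1 probe kept its direction and passed in all of its 24 alternatives (0.75 to 0.98).

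Reversals of direction were all among values that did not pass the test. The brightest Cacna1g probe gave −0.037 with an offset of 0, −0.10 without background correction, −0.055 with median centring, −0.027 with the authors' values, −0.058 with Cy5 alone, −0.20 with Agilent's ratio, −0.083 with slide as a random block and −0.13 with array weights. With the background fitted on all spots, the Cacna1a probes gave −0.010 and −0.067 and the brightest Cacna1b probe −0.019. Cacna1a probe A_52_P210424 gave −0.049 with an offset of 0 and −0.12 with Agilent's ratio, and Cacna2d2 probe A_51_P171711 gave 0.052 with the latter. With slide as a fixed block, Cacna1c gave 0.11, Cacna1d probe A_52_P47518 0.048 and Cacna1h 0.089. With 1 array left out, the range was −0.18 to 0.15 for the brightest probe of Cacna1g and −0.11 to 0.024 for that of Cacna1c.

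Of differences between members, Cacna1c minus Cacna1d was −0.024 with the mean of probes, Cacna1a minus Cacna1b 0.0095 with all spots and −0.13 to 0.010 with 1 array left out, Cacna1g minus Cacna1i −0.088 without background correction, −0.034 with Cy5 alone and −0.15 to 0.27 with 1 array left out, and Cacna1h minus Cacna1i 0.084 with an offset of 0. Of differences between probes, that of Cacna1a was −0.00032 with median centring, −0.10 with the authors' values, −0.087 without the 2 arrays with the highest muscle markers and −0.049 to 0.061 with 1 array left out. For Cacna1d probe A_51_P215272 it was 0.11 with an offset of 0 and 0.057 with Agilent's ratio, and for Cacna1g it was −0.21 to 0.078 with 1 array left out. For Cacna1h probe A_52_P543016 it was 0.14 with an offset of 0, 0.014 with the authors' values, 0.13 with Cy5 alone and −0.18 to 0.068 with 1 array left out. With Agilent's ratio it was 0.037 for Cacna1h probe A_52_P611158 and −0.33 for Cacna2d2 probe A_51_P171711.

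The cause of these changes was not tested. Differences within arrays were not run with slide blocks, array weights or other filters. All injury differences with slide as a fixed block rest on the 1 uninjured and 3 injured arrays of the slide with both groups. No paired analysis was possible because no label ties a sample to an animal and replicate numbers only follow the order of deposition. Probes not above background in Cy5, among them both of Cacna1e, have no measured change.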
